A study of Mus musculus with 7 samples.

Results

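Type I interferon effector and sensor genes were examined by RNA sequencing of CD4 T cells, or helper T lymphocytes. A list of 37 such genes was taken, which had been chosen with earlier results of these data known. Counts of its genes beside shares of all genes therefore describe the list and do not test it. Of the 37 genes, 35 had an entry with a count in the deposited table of 15588 genes. The genes Mx1 and Mx2 were not analysed here. All 35 passed the filter on low counts, so that 35 of the 12929 genes tested belong to the list. The cells had been sorted as tumour-infiltrating CD4 T cells from mice carrying hepatocellular carcinoma transplanted into the liver, and the model had been in place for 0 days (2 libraries) or 7 days (5 libraries). The labels give no strain, age, tumour line or number of animals, and they do not say which tissue was sorted on day 0. Nothing in the labels ties a library to an animal, so p-values measure the spread between libraries alone. Libraries are called by the last digit of their column, which is 2 or 3 on day 0 and 1, 2, 3, 5 or 6 on day 7. Values are always given in that order.

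Type I interferons bind a receptor made of IFNAR1 and IFNAR2 and act through the kinases JAK1 and TYK2. The kinases activate transcription factors that bind a DNA element called ISRE in the promoters of interferon-stimulated genes. The products of these genes detect foreign nucleic acid, block translation or degrade RNA, and some of them restrain the signal. In T cells the same genes are known to respond to interferon made by other cells during infection and in tumours.

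Levels are CPM, the count of a gene relative to the total of its library, scaled with TMM factors, and each log2 change is day 7 over day 0, ± its standard error, from edgeR's quasi-likelihood test. P-values were adjusted by the Benjamini-Hochberg method over all genes tested, with a threshold of 0.05. Total counts ran from 21910818 to 28333855. The T cell genes Cd3e, Cd3d, Cd3g, Cd4, Cd5 and Cd28 summed to between 2610 and 3519 CPM in every library. Cd4 itself stood at 387 and 403 CPM on day 0 and at 475, 591, 519, 913 and 936 CPM on day 7, highest in libraries 5 and 6. Genes of CD8 T cells (Cd8a and Cd8b1) summed to 204 and 175 CPM in day 7 libraries 5 and 6 and to between 2.32 and 18.2 CPM elsewhere. Since the samples are bulk, fewer cells that express a gene and less of its RNA per cell cannot be told apart.

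Of the 35 genes 3 rose by day 7 and none fell. They were Ifih1, Ifi27l2a and Isg20. Over all genes tested 1.07% were called higher and 0.472% were called lower. At an unadjusted p below 0.05, 13 of the 35 genes stood higher and 0 lower, where 6.29% of all genes stood higher and 3.78% lower. DESeq2 called 8 of the 35 higher (4.9% of all genes) and 0 lower (1.49%), and limma-voom called 0 higher (0.24% of all genes) and 0 lower (0.495%). The log2 change was positive in 33 of the 35 genes, and its median was 0.59. It was positive in 53.1% of all genes tested, whose median was 0.04. In 10 of the 35 genes every day 7 library stood above both day 0 libraries, as it did in 7.53% of all genes. No gene of the list stood below both day 0 libraries in every day 7 library, against 7.74% of all genes.

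**Figure D1:**
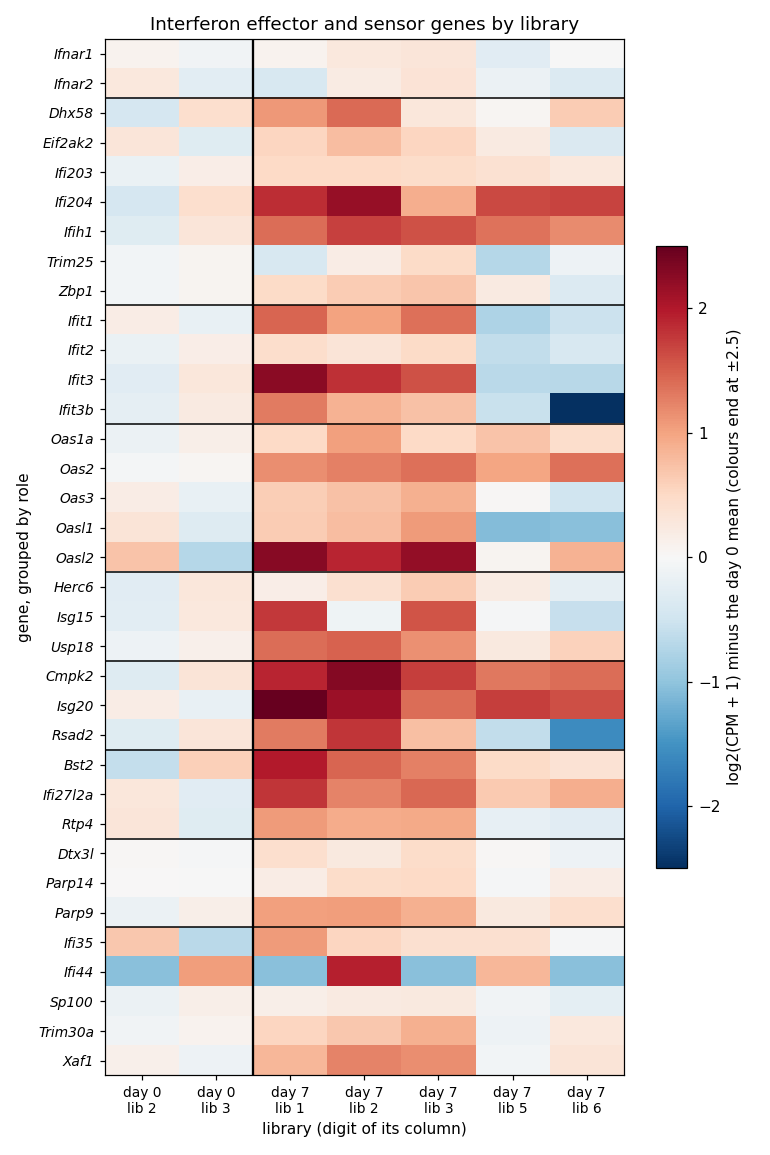
Level of each of the 35 genes (rows, grouped by role) in each of the 7 libraries (columns), as log2(CPM + 1) minus the mean of the day 0 libraries; red is above and blue below that mean, and the colours end at ±2.5. Day 7 libraries 1, 2 and 3 are red for most genes, while libraries 5 and 6 are red for some rows, such as Ifih1, Isg20 and Cmpk2, and blue for others, such as Ifit1, Ifit3 and Rsad2.

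The day 7 libraries differed widely in these genes. In libraries 1, 2 and 3 the number of genes above both day 0 libraries was 31, 32 and 32 of 35. In libraries 5 and 6 it was 12 and 15 of 35. Over all genes tested, the share above both day 0 libraries was nearly the same in each of them, at 35.4%, 35.5%, 35.2%, 35.7% and 36.3% in libraries 1, 2, 3, 5 and 6. Genes of the list below both day 0 libraries numbered 2, 0, 0, 10 and 14, against 31.4%, 30.1%, 31%, 31.5% and 33.4% of all genes. As log2(CPM + 1), the median difference from the day 0 mean over the 35 genes was 1.02, 0.93, 0.89, 0.04 and -0.02. The same median over all genes tested lay between 0.00 and 0.02 in every day 7 library. Among day 7 libraries the highest level was in library 1 for 11 of the 35 genes, in library 2 for 11 and in library 3 for 13, and never in library 5 or 6. Of all genes tested 20.1% were highest in library 5 and 21.8% in library 6.

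**Figure D2:**
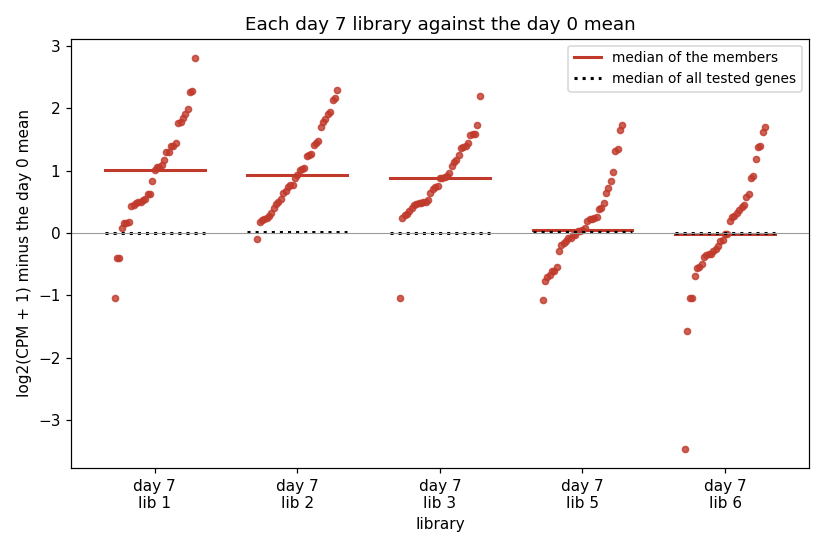
Difference of each of the 35 genes (points, sorted) from the mean of the day 0 libraries in each day 7 library, as log2(CPM + 1). Red bars are the medians over the 35 genes (1.02, 0.93, 0.89, 0.04 and -0.02) and dotted bars those over the 12929 genes tested, which lie close to 0 in each library.

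Markers of other cells also differed between these libraries. Macrophage and monocyte markers without Ly6c2, which T cells also express, summed to 7.03 and 9.996 CPM on day 0, to 12.6, 28.01 and 24.2 CPM in day 7 libraries 1, 2 and 3 and to 243 and 134 CPM in libraries 5 and 6. All 10 of these markers had an entry, led in libraries 5 and 6 by Lyz2 at 147 and 67.5 CPM. Ly6c2 had another order, at 306 and 306 CPM on day 0 and 524, 472, 423, 318 and 321 CPM on day 7. With Ly6c2 the 11 markers summed to 313 and 316 CPM on day 0 and to 536, 499.7, 447, 561 and 455 CPM on day 7. The NK cell markers (7 of 7 with an entry) summed to 664 and 768 CPM on day 0, to 534, 457 and 449 CPM in day 7 libraries 1, 2 and 3 and to 259 and 274 CPM in libraries 5 and 6. Most of it came from Klrb1c, which was lower in each day 7 library than on day 0. Klra7 and Eomes went the other way. Klra7 stood at 13.3 and 37.3 CPM on day 0 and at 78.8, 50.6, 54.1, 48.9 and 43.4 CPM on day 7. Eomes stood at 6.70 and 4.75 CPM on day 0 and at 29.0, 14.8, 17.8, 17.0 and 25.1 CPM on day 7. The other NK cell markers overlapped between the days. Of 7 markers of plasmacytoid dendritic cells, the main producers of type I interferon, 5 had an entry (Ccr9, Tcf4, Bst2, Irf8 and Klk1). They summed to 225 and 189 CPM on day 0 and to 221, 195, 219, 181 and 112 CPM on day 7, most of it from Ccr9, Irf8 and Bst2, which is itself on the gene list and which, like these others, T cells can express. Klk1 stood at 1.91 CPM in day 0 library 2 and at 0 elsewhere. Tcf4 was highest in libraries 5 and 6, at 2.66 and 3.43 CPM on day 0 and 0.074, 3.34, 4.10, 4.87 and 8.01 CPM on day 7. Hepatocyte markers (4 of 5 with an entry) summed to 7.15 and 2.93 CPM on day 0 and to 33.6, 26.02, 35.6, 7.45 and 0 CPM on day 7. Alb was most of the sum except in library 5. It stood at 7.15 and 1.86 CPM on day 0 and at 33.6, 23.3, 28.4, 0.761 and 0 CPM on day 7. Ttr stood at 6.69 CPM in library 5 and at 0 elsewhere. The B cell marker Ms4a1 was at 0 on day 0 and at 8.06, 7.91, 7.52, 0 and 0.0905 CPM on day 7. Endothelial markers (4 of 4) summed to 61.6 and 105 CPM on day 0 and to 170.3, 111, 128, 118 and 77.7 CPM on day 7, nearly all of it from Pecam1. The other endothelial markers had another order. In libraries 5 and 6 Cdh5 stood at 2.13 and 3.53 CPM and Kdr at 5.40 and 4.43 CPM. Elsewhere Cdh5 was at 0 and Kdr at most at 0.0397 CPM. Stab2 stood at 2.55 CPM in library 5 and at 0 elsewhere. The part of any of these cells in the interferon gene levels was not tested. Because of the CD8 and macrophage genes, the test was also run with both of those libraries left out, which was decided once the data had been seen. There 9 of the 35 genes rose, against 0.975% of all genes, and none fell, against 0.884%. The 9 were Cmpk2, Ifi27l2a, Ifih1, Ifit1, Ifit3, Isg20, Parp9, Trim30a and Xaf1. The median log2 change of the list was 0.95 (0.01 over all genes), and each of the 35 log2 changes was higher than with all libraries, as were 49.4% of those of all genes. Since no gene of the list was highest in library 5 or 6, these higher changes largely restate the levels given above.

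**Figure D3:**
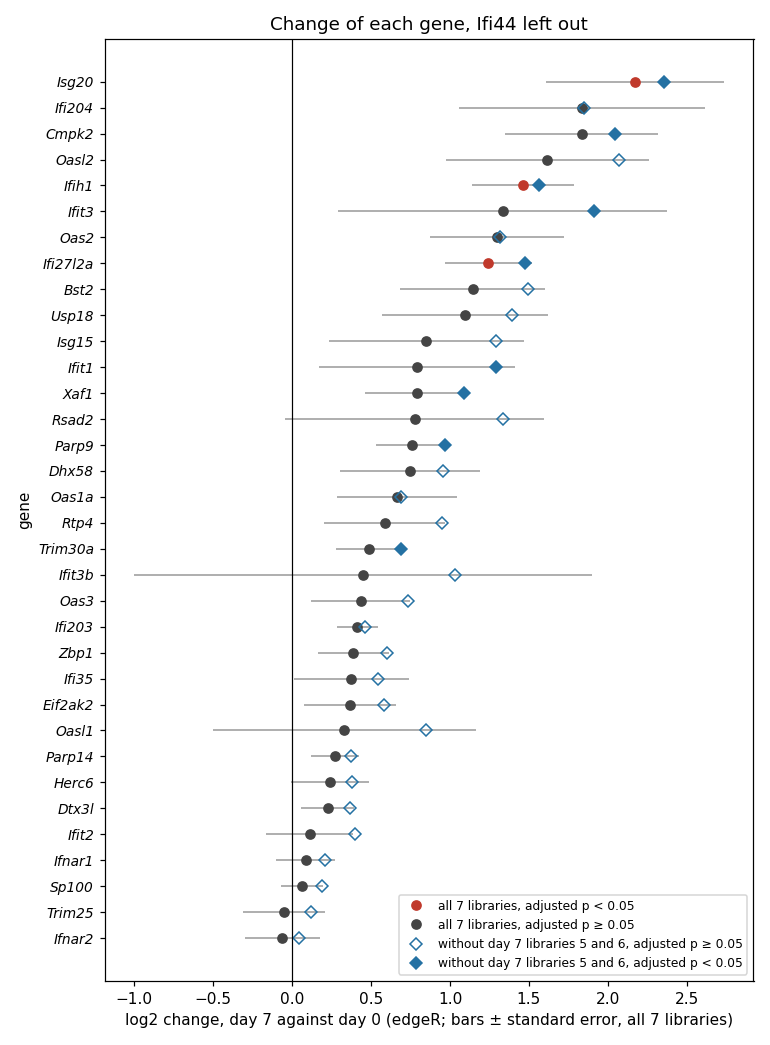
Log2 change at day 7 against day 0 for 34 genes (Ifi44, with counts in 3 libraries, is left out), with circles for all 7 libraries (bars ± standard error, red where the adjusted p is below 0.05) and diamonds without day 7 libraries 5 and 6 (filled where the adjusted p is below 0.05). The 3 red genes are Isg20, Ifih1 and Ifi27l2a, and each diamond lies to the right of its circle.

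Neither receptor gene of the list passed the test. Ifnar1 (Entrez 15975), which encodes the chain bound by TYK2, stood at 176 and 157 CPM in libraries 2 and 3 of day 0 and at 176, 199.96, 205, 136 and 165 CPM in libraries 1, 2, 3, 5 and 6 of day 7 (edgeR log2 change 0.085 ± 0.19, adjusted p = 0.999). Ifnar2 (Entrez 15976), which encodes the chain with the higher affinity for interferon, stood at 139.7 and 95.8 CPM on day 0 and 87.5, 134, 147, 104 and 91.7 CPM on day 7 (edgeR log2 change -0.06 ± 0.24). The groups overlapped in both. The sign of the Ifnar2 change turned without day 0 library 2 (log2 change 0.24).

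Cytoplasmic sensors of double-stranded RNA behaved unequally. Ifih1 (Entrez 71586) encodes MDA5, which binds long double-stranded RNA and signals through MAVS. Its level was 20.1 and 31.0 CPM in libraries 2 and 3 of day 0 and at 67.7, 83.9, 77.5, 65.2 and 58.3 CPM in libraries 1, 2, 3, 5 and 6 of day 7. All 5 day 7 libraries lay above both day 0 libraries, libraries 5 and 6 included, and the highest day 7 level was 1.44 times the lowest. The mean of Ifih1 rose from 25.6 ± 7.68 to 70.5 ± 10.2 CPM (edgeR log2 change 1.46 ± 0.32, adjusted p = 0.0147). The call was lost without day 7 library 2 (edgeR adjusted p = 0.0555), with a block by column digit (0.103) and with limma-voom (0.093). Leaving out day 0 library 2 or 3, which leaves a single day 0 library, gave a log2 change of 1.19 or 1.82.

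The RefSeq promoter window of Ifih1, from 250 bases before to 50 after the start (GRCm38.p6, chr2:62646206-62646505, minus strand), is shown because this gene was called higher. It holds an ISRE-like motif (GAAA, any 2 bases and GAAA), in capitals. The motif begins 32 bases after the start.
Ifih1: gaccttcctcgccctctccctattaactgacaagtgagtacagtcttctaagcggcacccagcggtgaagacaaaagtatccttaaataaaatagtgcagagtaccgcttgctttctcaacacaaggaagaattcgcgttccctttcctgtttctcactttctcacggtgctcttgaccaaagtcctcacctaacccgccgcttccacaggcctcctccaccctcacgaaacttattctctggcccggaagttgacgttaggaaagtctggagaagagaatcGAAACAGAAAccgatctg

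Dhx58 (Entrez 80861) encodes LGP2, a relative of MDA5 that lacks the signalling domains and tunes its activity. It stood at 16.5 and 29.9 CPM on day 0 and 48.3, 61.1, 27.3, 22.9 and 35.01 CPM on day 7 (edgeR log2 change 0.75 ± 0.44, adjusted p = 0.62), with libraries 3 and 5 within the range of day 0. Eif2ak2 (Entrez 19106), which encodes the kinase PKR that halts translation on double-stranded RNA, stood at 80.7 and 53.4 CPM on day 0 and 96.1, 113, 95.6, 76.5 and 50.9 CPM on day 7 (edgeR log2 change 0.37 ± 0.29, adjusted p = 0.739). Zbp1 (Entrez 58203), a sensor of Z-form nucleic acid that can start necroptosis, stood at 144 and 161 CPM on day 0 and 214, 238, 248, 178 and 119.7 CPM on day 7 (edgeR log2 change 0.39 ± 0.23, adjusted p = 0.617). In both, day 7 libraries 1, 2 and 3 were above day 0 and library 6 was below both day 0 libraries. Trim25 (Entrez 217069), a ubiquitin ligase that acts on the RIG-I pathway, stood at 109 and 118 CPM on day 0 and 85.2, 129, 159, 69.0 and 104 CPM on day 7 (edgeR log2 change -0.05 ± 0.26), with day 7 libraries on both sides of day 0.

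Ifi203 and Ifi204 belong to the PYHIN family, whose proteins bind DNA or act on transcription in the nucleus, and both were above day 0 in each day 7 library. Ifi203 (Entrez 15950) stood at 408 and 518 CPM on day 0 and 649, 648, 631, 600.5 and 551 CPM on day 7 (edgeR log2 change 0.41 ± 0.13, adjusted p = 0.143). Its highest day 7 level was 1.18 times its lowest, the narrowest ratio on the list. Ifi204 (Entrez 15951) stood at 3.12 and 6.35 CPM on day 0 and 18.7, 23.8, 9.31, 16.2 and 16.8 CPM on day 7 (edgeR log2 change 1.84 ± 0.78, adjusted p = 0.373). Neither was called by edgeR, while DESeq2 called both (adjusted p = 0.0128 for Ifi203 and 0.0287 for Ifi204). The family has closely related neighbours, so reads shared between its genes make these counts uncertain.

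The IFIT genes encode proteins that bind foreign RNA and hold back its translation, and they set day 7 libraries 1, 2 and 3 apart from 5 and 6. Ifit1 (Entrez 15957), which recognises RNA whose cap lacks a methyl group, stood at 35.3 and 27.0 CPM in libraries 2 and 3 of day 0 and at 86.0, 63.1, 81.3, 17.6 and 20.9 CPM in libraries 1, 2, 3, 5 and 6 of day 7. Libraries 1, 2 and 3 lay above both day 0 libraries and libraries 5 and 6 below both. Ifit1 was not called with all libraries (edgeR log2 change 0.79 ± 0.62, adjusted p = 0.758), and rose without day 7 libraries 5 and 6 (edgeR log2 change 1.29 ± 0.32, adjusted p = 0.0494). Ifit3 (Entrez 15959), a partner of other IFIT proteins, stood at 25.2 and 37.6 CPM on day 0 and 151, 112, 94.7, 18.9 and 18.8 CPM on day 7, a highest to lowest ratio of 8.04 within day 7. Its change was not called with all libraries (edgeR log2 change 1.33 ± 1.04, adjusted p = 0.785) and was called without libraries 5 and 6 (edgeR log2 change 1.91 ± 0.30, adjusted p = 0.00177). Ifit2 (Entrez 15958), linked to apoptosis and to RNA binding, showed the same order at 92.4 and 116 CPM on day 0 and 142, 129.8, 145, 67.2 and 78.7 CPM on day 7 (edgeR log2 change 0.11 ± 0.28). Ifit3b (Entrez 667370) stood at 8.40 and 11.9 CPM on day 0 and 26.1, 19.2, 17.3, 6.50 and 0 CPM on day 7 (edgeR log2 change 0.45 ± 1.45). The count of 0 in library 6 allows up to 0.136 CPM.

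Ifit3 and Ifit3b are near-identical copies whose reads may be split between them, so their levels are uncertain one by one. Their RefSeq promoter windows are shown because they share a run of 169 identical bases that holds 2 ISRE-like motifs in reverse orientation (TTTC, any 2 bases and TTTC, in capitals). The copies of this run begin 218 bases before the start of Ifit3 and 250 bases before that of Ifit3b. The windows are chr19:34583279-34583578 and chr19:34607707-34608006 (GRCm38.p6, plus strand).
Ifit3: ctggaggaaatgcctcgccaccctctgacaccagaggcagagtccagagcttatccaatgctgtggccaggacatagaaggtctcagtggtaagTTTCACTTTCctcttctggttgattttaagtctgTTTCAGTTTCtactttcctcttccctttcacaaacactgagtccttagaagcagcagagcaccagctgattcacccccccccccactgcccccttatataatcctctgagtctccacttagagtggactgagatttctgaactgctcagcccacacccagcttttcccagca
Ifit3b: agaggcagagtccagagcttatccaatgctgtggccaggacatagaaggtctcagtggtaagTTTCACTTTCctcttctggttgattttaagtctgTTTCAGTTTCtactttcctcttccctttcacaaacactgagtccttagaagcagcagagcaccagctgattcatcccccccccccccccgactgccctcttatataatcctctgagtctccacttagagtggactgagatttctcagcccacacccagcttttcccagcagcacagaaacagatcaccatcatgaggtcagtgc

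**Figure D4:**
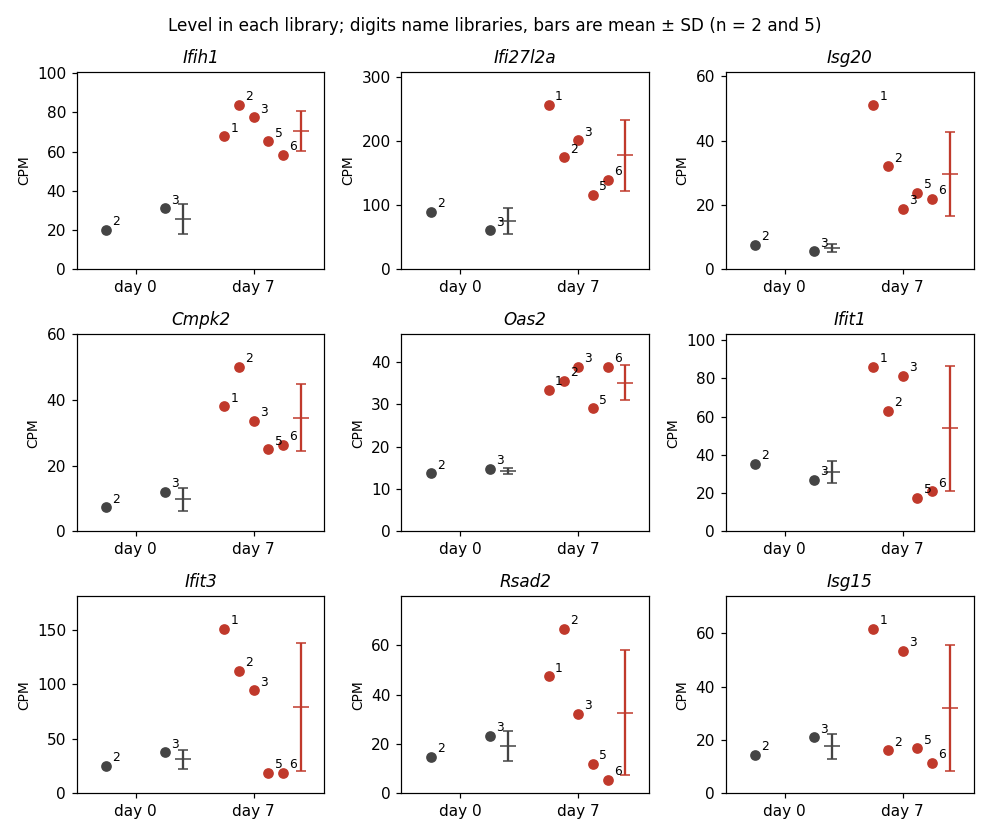
CPM of 9 genes in each library (points, with the library's digit) and mean ± SD (n = 2 on day 0 and 5 on day 7), each axis starting at 0. Ifih1, Ifi27l2a, Isg20, Cmpk2 and Oas2 lie above day 0 in all 5 day 7 libraries, while Ifit1, Ifit3 and Rsad2 lie above it in libraries 1, 2 and 3 and below it in 5 and 6, and Isg15 lies above it in libraries 1 and 3.

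Oligoadenylate synthetases turn double-stranded RNA into a signal that activates the nuclease RNase L. Within this family Oas2 (Entrez 246728) kept apart from day 0 in each day 7 library, at 13.7 and 14.8 CPM in libraries 2 and 3 of day 0 and at 33.3, 35.5, 38.8, 29.0 and 38.8 CPM in libraries 1, 2, 3, 5 and 6 of day 7 (edgeR log2 change 1.30 ± 0.42, adjusted p = 0.168). Oas1a (Entrez 246730), which has several close copies beside it, did so too, at 22.3 and 27.9 CPM on day 0 and 35.5, 51.7, 35.7, 41.7 and 34.4 CPM on day 7 (edgeR log2 change 0.66 ± 0.38, adjusted p = 0.611). Oas3 (Entrez 246727), the member that senses long RNA, stood at 107 and 83.9 CPM on day 0 and 146, 159, 177, 97.4 and 67.1 CPM on day 7 (edgeR log2 change 0.43 ± 0.31, adjusted p = 0.689) and was below both day 0 libraries in library 6. None of these was called by edgeR, while DESeq2 called Oas2 (adjusted p = 0.00196).

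The OAS-like genes had another order. Oasl1 (Entrez 231655), which in mice restrains translation of Irf7, stood at 12.9 and 7.997 CPM on day 0 and 16.3, 18.1, 22.5, 4.30 and 4.43 CPM on day 7 (edgeR log2 change 0.33 ± 0.83), with libraries 5 and 6 below both day 0 libraries. Oasl2 (Entrez 23962) stood at 13.8 and 4.53 CPM on day 0 and 42.97, 33.1, 40.6, 8.56 and 15.7 CPM on day 7 (edgeR log2 change 1.62 ± 0.64, adjusted p = 0.329). Its 3 highest levels were in libraries 1, 2 and 3, while library 5 was within the range of day 0. Leaving out day 0 library 2 or 3 gave a log2 change of Oasl2 of 2.64 or 1.03.

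ISG15 is a ubiquitin-like protein that is attached to other proteins by UBA7, UBE2L6 and, in mice, HERC6, and removed by USP18. Isg15 (Entrez 100038882) stood at 14.4 and 21.0 CPM in libraries 2 and 3 of day 0 and at 61.6, 16.1, 53.5, 17.0 and 11.4 CPM in libraries 1, 2, 3, 5 and 6 of day 7 (edgeR log2 change 0.85 ± 0.62, adjusted p = 0.692). It was high in libraries 1 and 3 only, since library 2, which was high for most other genes of the list, lay within the range of day 0. Usp18 (Entrez 24110), whose product also binds IFNAR2 and damps the response, stood at 11.1 and 13.6 CPM on day 0 and 34.1, 35.9, 28.4, 14.7 and 18.8 CPM on day 7 (edgeR log2 change 1.10 ± 0.52, adjusted p = 0.484). The day 7 levels of Usp18 did not overlap those of day 0, and library 2 was its highest. Herc6 (Entrez 67138) stood at 72.7 and 108 CPM on day 0 and 99.1, 118, 139, 102 and 76.3 CPM on day 7 (edgeR log2 change 0.24 ± 0.25, adjusted p = 0.873), with the groups overlapping. Of the conjugation enzymes outside the list, Uba7 stood at 160.4 and 161 CPM on day 0 and 154, 157, 153, 130.5 and 112 CPM on day 7 and Ube2l6 at 10.02 and 0 CPM on day 0 and 22.9, 4.13, 29.1, 7.11 and 10.9 CPM on day 7, and neither passed.

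Enzymes of nucleotide and RNA metabolism included the largest fitted rise. Isg20 (Entrez 57444), an exonuclease of single-stranded RNA, stood at 7.53 and 5.57 CPM in libraries 2 and 3 of day 0 and at 51.1, 31.9, 18.7, 23.8 and 21.9 CPM in libraries 1, 2, 3, 5 and 6 of day 7. All 5 day 7 libraries lay above day 0, with library 1 the highest. The mean of Isg20 rose from 6.55 ± 1.38 to 29.5 ± 13.0 CPM (edgeR log2 change 2.17 ± 0.56, adjusted p = 0.0491). The call stood just under the threshold. It was lost if 1 of day 7 libraries 1, 2 and 5 was left out (edgeR adjusted p = 0.174, 0.111 and 0.0798). It was also lost with RLE scaling (0.0504), a minimum mean of 5 CPM (0.0642), a block by column digit (0.309) and limma-voom (0.41). Leaving out day 0 library 2 or 3, which leaves a single day 0 library, gave a log2 change of 2.41 or 1.98.

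RefSeq gives Isg20 windows for 3 starts. The window of the first of them (chr7:78913174-78913473, plus strand, GRCm38.p6) is shown because this gene too was called higher. Unlike that of Ifih1 it holds no ISRE-like motif, nor do the windows of the other 2 starts. That says only that these letters are not in these windows.
Isg20: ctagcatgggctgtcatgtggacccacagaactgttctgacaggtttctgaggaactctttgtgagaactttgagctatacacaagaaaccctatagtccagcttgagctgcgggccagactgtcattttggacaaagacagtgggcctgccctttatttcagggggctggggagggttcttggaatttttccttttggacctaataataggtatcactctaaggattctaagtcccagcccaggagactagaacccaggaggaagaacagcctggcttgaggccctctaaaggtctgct

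Cmpk2 (Entrez 22169), a mitochondrial nucleotide kinase, stood at 7.28 and 12.1 CPM in libraries 2 and 3 of day 0 and at 38.0, 50.1, 33.6, 24.99 and 26.3 CPM in libraries 1, 2, 3, 5 and 6 of day 7. The groups did not overlap, and the change narrowly missed the threshold (edgeR log2 change 1.83 ± 0.48, adjusted p = 0.054). It was called without scaling factors (adjusted p = 0.0490), without a filter on low counts (0.0183), by DESeq2 and without day 7 libraries 5 and 6 (edgeR log2 change 2.05 ± 0.48, adjusted p = 0.0401). Rsad2 (Entrez 58185), which encodes viperin, a radical SAM enzyme that makes a chain-terminating nucleotide, lies next to Cmpk2 on chromosome 12 in RefSeq's order of protein-coding genes. Rsad2 stood at 14.8 and 23.4 CPM on day 0 and 47.4, 66.5, 32.3, 11.9 and 5.61 CPM on day 7 (edgeR log2 change 0.78 ± 0.82, adjusted p = 0.891). Library 2 was the highest for both genes. In libraries 5 and 6 Cmpk2 was above both day 0 libraries and Rsad2 below both, and the day 7 levels of Rsad2 spanned a ratio of 11.9, the widest among genes with a count in every library.

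Among membrane proteins, Ifi27l2a (Entrez 76933), a small hydrophobic protein, stood at 89.6 and 60.4 CPM in libraries 2 and 3 of day 0 and at 257, 174, 201, 116 and 139.8 CPM in libraries 1, 2, 3, 5 and 6 of day 7. Every day 7 library lay above day 0, with the smallest gaps in libraries 5 and 6. The mean of Ifi27l2a rose from 75.0 ± 20.6 to 178 ± 54.9 CPM (edgeR log2 change 1.24 ± 0.28, adjusted p = 0.0266). Significance of Ifi27l2a was lost without day 7 library 2 (edgeR adjusted p = 0.0815) or 3 (0.0776), with a block by column digit (0.0605) and with limma-voom (0.0894). Leaving out day 0 library 2 or 3, which leaves a single day 0 library, gave a log2 change of 1.56 or 0.99. Bst2 (Entrez 69550), which encodes tetherin, a protein that holds budding virions at the cell surface, stood at 14.9 and 35.02 CPM on day 0 and 93.4, 64.2, 55.9, 32.3 and 29.8 CPM on day 7 (edgeR log2 change 1.14 ± 0.46, adjusted p = 0.344). Rtp4 (Entrez 67775), a chaperone of receptor transport, stood at 70.4 and 46.1 CPM on day 0 and 119.7, 109.7, 111, 49.5 and 46.5 CPM on day 7 (edgeR log2 change 0.59 ± 0.38, adjusted p = 0.636). In both, libraries 1, 2 and 3 were above day 0 and libraries 5 and 6 within its range.

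Parp9, Dtx3l and Parp14 lie in a row on chromosome 16 and encode enzymes of ADP-ribosylation, of which PARP9 and the ubiquitin ligase DTX3L form a complex. Parp9 (Entrez 80285) stood at 96.1 and 117 CPM on day 0 and 215, 219, 198, 126 and 142 CPM on day 7 (edgeR log2 change 0.76 ± 0.23, adjusted p = 0.11), with no overlap between the days. It was called by DESeq2 (adjusted p = 0.0126), and by edgeR without libraries 5 and 6 (edgeR log2 change 0.97 ± 0.18, adjusted p = 0.00788). Its partner Dtx3l (Entrez 209200) stood at 231 and 223 CPM on day 0 and 306, 269.8, 311, 233 and 208 CPM on day 7 (edgeR log2 change 0.22 ± 0.17, adjusted p = 0.708). Parp14 (Entrez 547253) stood at 315 and 312 CPM on day 0 and 355, 432, 441, 307 and 358 CPM on day 7 (edgeR log2 change 0.27 ± 0.15, adjusted p = 0.593). In Dtx3l and in Parp14, 4 of 5 day 7 libraries were above both day 0 libraries and 1 was below.

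Of the remaining genes, Xaf1 and Trim30a were called without libraries 5 and 6 and not with all libraries. Xaf1 (Entrez 327959), which binds the apoptosis inhibitor XIAP, stood at 53.1 and 44.9 CPM on day 0 and 87.4, 117, 111, 46.3 and 61.4 CPM on day 7 (edgeR log2 change 0.79 ± 0.33, adjusted p = 0.35). It was called without libraries 5 and 6 (edgeR log2 change 1.09 ± 0.26, adjusted p = 0.0435). Trim30a (Entrez 20128), a mouse TRIM protein that restrains NF-kappaB signalling, stood at 187 and 210.5 CPM on day 0 and 287, 318, 368, 181 and 239 CPM on day 7 (edgeR log2 change 0.49 ± 0.21, adjusted p = 0.417). It too was called without libraries 5 and 6 (edgeR log2 change 0.69 ± 0.15, adjusted p = 0.0216). Sp100 (Entrez 20684), a component of PML nuclear bodies, stood at 696 and 845 CPM on day 0 and 855, 900.0, 908, 725 and 644 CPM on day 7 (edgeR log2 change 0.065 ± 0.13, adjusted p = 0.998), with day 7 libraries on both sides of its upper day 0 value. Ifi35 (Entrez 70110), a partner of NMI, stood at 66.2 and 25.2 CPM on day 0 and 86.5, 60.2, 54.5, 54.5 and 40.3 CPM on day 7 (edgeR log2 change 0.38 ± 0.36, adjusted p = 0.844), and the 2 day 0 libraries differed so much that 4 of 5 day 7 libraries fell between them. Ifi44 (Entrez 99899) had counts in 3 of 7 libraries, namely day 0 library 3 (3.21 CPM) and day 7 libraries 2 (6.91 CPM) and 5 (2.66 CPM). Its change could not be estimated with any precision (edgeR log2 change 0.25 ± 3.41).

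Set side by side, 6 genes (Ifit1, Ifit2, Ifit3, Ifit3b, Oasl1 and Rsad2) were above both day 0 libraries in each of day 7 libraries 1, 2 and 3 and below both in 5 and 6. This pattern was picked after the values were seen, and 0.804% of all genes tested had it. Another 10 genes (Cmpk2, Ifi203, Ifi204, Ifi27l2a, Ifih1, Isg20, Oas1a, Oas2, Parp9 and Usp18) were above day 0 in each of the 5 libraries. In all, 28 of the 35 were above both day 0 libraries in each of libraries 1, 2 and 3, as were 13.5% of all genes, and 7 were below both in libraries 5 and 6, as were 20.6% of all genes. Among the 34 genes with a mean of at least 10 CPM, the median SD of log2(CPM + 1) within day 7 was 0.45, against 0.37 for all 8655 such genes.

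An ISRE-like motif was common in the promoters of the list. RefSeq windows of 300 bases were found for 26 of the 35 genes by gene number and symbol. The motif searched was GAAA, any 2 bases and GAAA, or its reverse complement. It was in a window of 12 of these 26 genes (46.2%), against 3.99% of all 27025 genes with a window and 3.83% of the 10295 of them that were tested here. A stricter form with C after the second GAAA, which contains the first, was in 9 of the 26 (34.6%) and in 0.944% of all genes. The 12 were Bst2, Eif2ak2, Ifi203, Ifih1, Ifit1, Ifit3, Ifit3b, Isg15, Oas1a, Oas3, Rsad2 and Trim30a. A match describes the letters of a window and does not show a bound site. Genes above day 0 in each day 7 library (Ifih1, Ifi203 and Oas1a) and genes below day 0 in libraries 5 and 6 (Ifit1, Ifit3, Ifit3b and Rsad2) were both among them. The motif nearest to the start is shown for 10 of these genes with up to 10 bases on either side, 5′ to 3′ on the gene's strand, with motif bases in capitals. The stretches show whether neighbouring motifs overlap, as they do in Isg15, Bst2 and Oas1a. A capital at the left end belongs to a neighbouring motif.
Bst2: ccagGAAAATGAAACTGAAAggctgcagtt
Eif2ak2: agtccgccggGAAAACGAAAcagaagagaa
Ifi203: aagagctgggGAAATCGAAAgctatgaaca
Ifih1: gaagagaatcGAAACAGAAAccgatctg
Ifit1: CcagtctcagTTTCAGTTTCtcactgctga
Isg15: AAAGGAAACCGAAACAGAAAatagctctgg
Oas1a: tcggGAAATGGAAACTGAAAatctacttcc
Oas3: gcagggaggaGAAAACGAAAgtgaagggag
Rsad2: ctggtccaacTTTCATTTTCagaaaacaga
Trim30a: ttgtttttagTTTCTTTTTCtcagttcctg

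**Figure D5:**
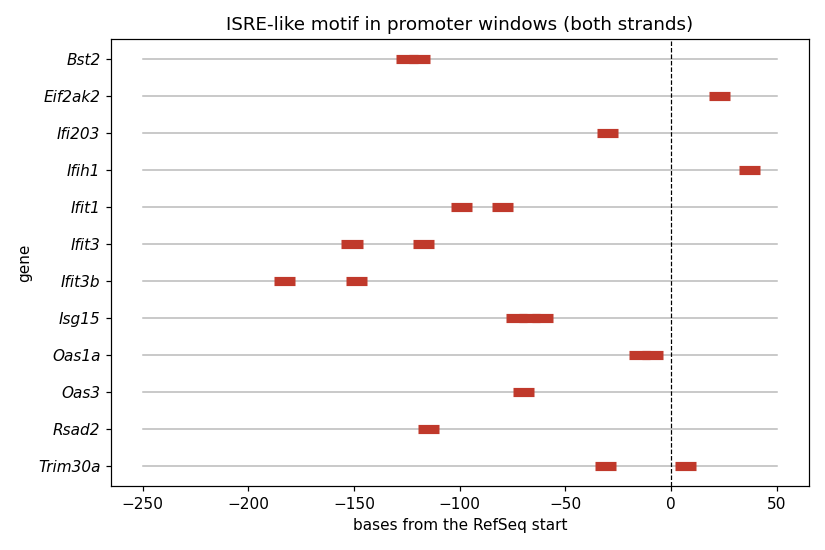
Position of the ISRE-like motif on either strand (red) in the promoter window of each of the 12 genes that hold them, in bases from the RefSeq start, which is marked by the dashed line. Most motifs lie before the start, while those of Ifih1 and Eif2ak2 lie after it. The pair of Trim30a comes from windows of 2 alternative starts and begins at 2 and at -36 bases from them, so the first also lies after its start.

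Other genes of the pathway were read from lists that had also been chosen with earlier results of these data known. Of 21 interferon ligand genes 2 had an entry, Ifng and Ifna2, and the others were not analysed here. Ifng (Entrez 15978), the type II interferon, whose target genes overlap those of type I, stood at 483 and 336 CPM on day 0 and 125, 192, 133, 264 and 267 CPM on day 7 (edgeR log2 change -1.06 ± 0.33, adjusted p = 0.276). All 5 day 7 libraries lay below day 0, and libraries 5 and 6, where many genes of the list were low, had the highest Ifng of day 7. With those libraries left out Ifng fell (edgeR log2 change -1.46, adjusted p = 0.000369). With all libraries limma-voom called it lower (adjusted p = 0.0248) and DESeq2 did not. Ifna2 stood at 1.14 CPM in day 7 library 5 and had no count elsewhere. Among 8 tested genes of interferon receptors and their kinases, Ifnar1 and Ifnar2 included, none was called by edgeR, and 1 (Ifnar1) had a positive log2 change. Jak1 (Entrez 16451) stood at 1206 and 1352 CPM on day 0 and 1079.8, 990.3, 1045, 1047 and 1034 CPM on day 7 (edgeR log2 change -0.30 ± 0.10, adjusted p = 0.186), below day 0 in each day 7 library, and DESeq2 called it lower (adjusted p = 0.0115).

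Of 7 tested genes of interferon regulatory factors (IRF) none was called by edgeR, DESeq2 or limma-voom, 0 were at an unadjusted p below 0.05 by edgeR, and 4 had a positive log2 change (median 0.31). Irf1, Irf2 and Irf3 had log2 changes of -0.18, -0.036 and -0.26. Irf7 (Entrez 54123), which amplifies interferon production, stood at 81.8 and 79.5 CPM on day 0 and 136, 137, 157, 76.8 and 78.6 CPM on day 7 (edgeR log2 change 0.54 ± 0.27, adjusted p = 0.522). Irf7 was above day 0 in libraries 1, 2 and 3 and not in libraries 5 and 6, while Irf8 was highest in day 7 library 5, at 87.2 CPM. Of 14 tested sensor adaptors and upstream sensors none was called by any of the 3 tools or at an unadjusted p below 0.05 by edgeR, and the median log2 change was 0.05. Of 15 genes that restrain interferon signalling or nucleic acid sensing, edgeR called 1 higher (1.07% of all genes) and none lower (0.472%). DESeq2 also called Ptpn2 lower (adjusted p = 0.0353), as it did 1.49% of all genes. The gene that rose was Samhd1 (Entrez 56045), a phosphohydrolase of deoxynucleotides, at 404 and 387 CPM on day 0 and 609, 692, 643, 638 and 576 CPM on day 7 (edgeR log2 change 0.68 ± 0.13, adjusted p = 0.0028).

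Among 70 other interferon-stimulated genes tested, 2 rose (1.07% of all genes did), none fell, and 52 had a positive log2 change (53.1% of all genes did), with a median of 0.26. DESeq2 called 5 of the 70 higher (4.9% of all genes) and limma-voom 1 (0.24%). Neither called any lower (1.49% and 0.495% of all genes). Ms4a4b (Entrez 60361), a membrane protein of T cells, stood at 745 and 767 CPM on day 0 and 1136, 1055, 1058, 1087 and 975 CPM on day 7 (edgeR log2 change 0.49 ± 0.11, adjusted p = 0.014). Its neighbour in name, Ms4a4c (Entrez 64380), stood at 2.66 and 12.9 CPM on day 0 and 34.8, 61.3, 32.7, 23.2 and 38.0 CPM on day 7 (edgeR log2 change 2.28 ± 0.57, adjusted p = 0.0409). All 5 day 7 libraries were above day 0 in both. Without libraries 5 and 6, 5 genes of this list rose (Lgals3bp, Slfn5, Ifi206, Ms4a4b and Rnf213), with a list median of 0.34, against 0.975% of all genes higher. Rnf213 (Entrez 672511), a large ubiquitin ligase, was one of them (edgeR log2 change 1.14, adjusted p = 4.29e-05), at 329 and 338 CPM on day 0 and 630.3, 787, 804, 488 and 426 CPM on day 7. Of the 70 genes 64 had a promoter window, and 33 of these (51.6%) held the motif on either strand, against 3.83% of the tested genes with a window.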

How the data were processed

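RNA had been taken with TRIzol and libraries made by a standard Illumina procedure, per the labels' protocols. CASAVA 1.8, HISAT2 2.0.5 and featureCounts 1.5.0-p3 are named in the submitters' processing notes without role or setting. The sources used here do not give a build, an annotation or a strand setting, and without strand reads of overlapping genes cannot be told apart. The authors deposited raw counts per gene, and every entry had a gene name. Between 72.4% and 78.1% of counts from 2 to 200 were even, so halved counts were also tested. Columns were assigned to a day by name and to no single sample, since their digits do not follow the sample titles. Counting error only is covered by floors (3 counts).

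In edgeR 4.0.16 (R 4.3.3), filterByExpr removed genes with low counts, TMM gave scaling factors between 0.988 and 1.01, and the quasi-likelihood test (glmQLFTest after a robust glmQLFit) compared the days. Standard errors are the log2 change over the root of F. The test was checked on simulated data. Alternatives were RLE or no scaling, other filters, halved counts, DESeq2 1.42.0, limma-voom (limma 3.58.1), a block and each library left out. Members and lists were chosen with earlier results of these data known. Every member is named, with members past the threshold in full, and genes of other lists were named if past the threshold or by role. In all 6 promoters were selected by rule (called members, then those of highest mean CPM with the motif): Ifih1 and Isg20 are given whole, Ifi203, Trim30a, Oas3 and Eif2ak2 as stretches. Those of Ifit3, Ifit3b and the other stretches were added after the values were seen. Protein sequences were not used here. Neighbouring genes come from RefSeq on GRCm38.p6.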

Additional observations from a re-analysis of the deposited data

How the results depend on the processing

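The number of genes of the list called higher was 3 with edgeR on all libraries. It was 5 without a filter on low counts, 8 with DESeq2, 0 with limma-voom (7 at an unadjusted p below 0.05) and 0 with a replicate block (20 at an unadjusted p below 0.05). It was 9 without day 7 libraries 5 and 6, chosen after the data were seen, and from 0 (without day 7 library 2, where 9 were at an unadjusted p below 0.05) to 4 with any 1 library left out. The share of all genes at an unadjusted p below 0.05 was taken for the main test only. The counts of 7, 20 and 9 therefore have no share beside them, and nothing is concluded from them. No setting called a gene of the list lower. Over all genes the calls numbered 199, and 375 without a filter, 826 with DESeq2, 95 with limma-voom, 82 with the block, and from 127 (without day 7 library 5) to 189 with any 1 library left out. The block used the column digits 2 and 3, which both days share, whose libraries did not deviate together (r = -0.00211 and -0.000123 across genes), so the digits are not taken as pairs.

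Signs turned for some genes that were never called there. Ifnar2 had a log2 change of 0.28 with the block, 0.047 without day 7 libraries 5 and 6, and from -0.30 to 0.24 (without day 0 library 2) with any 1 library left out. Trim25 had 0.34 with the block, 0.12 without day 7 libraries 5 and 6, and from -0.23 to 0.074 (without day 7 library 5) with any 1 left out. With limma-voom Ifi44 had -0.61 and Ifit3b -1.08. With any 1 library left out Ifi44 ran from -1.26 to 8.57 (lowest without day 7 library 2). Herc6 ran from -0.016 to 0.56, Ifit2 from -0.042 to 0.29 and Sp100 from -0.065 to 0.22 (each lowest without day 0 library 2), and Ifi35 from -0.15 to 1.24 (lowest without day 0 library 3). The causes were not tested. Halving the counts moved no call of the list. Depth was between 21910818 and 28333855 counts, and the small number of day 0 libraries limits what the test can show.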

Other observations

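Ifitm3 (Entrez 66141), an interferon-induced membrane protein that blocks entry of viruses and is also abundant in myeloid cells, had an order unlike that of the genes above. It was chosen after its values were seen. It stood at 2.79 and 8.92 CPM on day 0 and 10.9, 12.5, 9.91, 73.5 and 42.02 CPM on day 7 (edgeR log2 change 2.34 ± 0.95, adjusted p = 0.394). Day 7 libraries 5 and 6 were its highest, as they were for Lyz2 (147 and 67.5 CPM there and at most 6.66 CPM elsewhere). Without libraries 5 and 6 the log2 change of Ifitm3 was 0.91 (edgeR adjusted p = 0.91). Ifitm1 and Ifitm2 were also highest in libraries 5 and 6. Ifitm1 stood at 26.5 and 25.7 CPM there and at most at 8.51 CPM elsewhere. Ifitm2 stood at 24.3 and 31.8 CPM there and at most at 8.14 CPM elsewhere. The part of myeloid cells in these values was not tested.

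Adar (Entrez 56417), which edits double-stranded RNA and so keeps it from MDA5, and Ifi206 (Entrez 102639543), a PYHIN gene, were also chosen after their values were seen. Adar stood at 157 and 111 CPM on day 0 and 196, 241, 229, 125 and 173 CPM on day 7 (edgeR log2 change 0.52 ± 0.23, adjusted p = 0.392). Ifi206 stood at 174 and 158 CPM on day 0 and 288, 381, 327, 208 and 159 CPM on day 7 (edgeR log2 change 0.72 ± 0.30, adjusted p = 0.439) and rose without libraries 5 and 6 (edgeR log2 change 0.99, adjusted p = 0.00155). Both were highest in libraries 1, 2 and 3.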
